A study of Homo sapiens with 34 samples.

Results

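The kinase and phosphatase genes described here are those of the 3 deposited m6Am peak lists whose names begin with the symbol of a protein kinase, lipid kinase or phosphatase family (MAPK, PPP, PTPN, PTPR, DUSP, CAMK, CSNK, PRKA, PRKC, PRKD, PIK3, AKT, STK, RPS6K, DYRK, CLK, NEK, TAOK and the like). The rule took 46 of the 2116 listed spans, from 40 genes. The HEK293T list held 34 of them among 1652 spans, the hypoxia list 10 among 390 and the heat shock list 2 among 74. Of the 40 genes, 25 encode catalytic kinases or phosphatases, 12 encode regulatory subunits and 3 encode inhibitors, substrates or binding partners, so the names mark signalling families and not enzymes alone.

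m6Am is an adenosine methylated on its base and its ribose that sits next to the cap as the first nucleotide of many messenger RNAs. PCIF1 writes it, and FTO can remove the methyl group from the base. The same antibody binds m6A, which lies inside the message, and m6Am-seq therefore compares capped fragments with and without FTO treatment before the m6A immunoprecipitation. Protein kinases place phosphate groups on proteins and phosphatases take them off. Both kinds of enzyme depend on regulatory subunits that choose their substrates and their place in the cell.

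All cells were HEK293T, a human embryonic kidney line. Of the 34 libraries, 8 were from HEK293T cells with no stress named in their labels, 7 from heat-shocked cells, 7 from hypoxic cells and 7 from untreated controls of the stress experiments. These covered m6A-IP with FTO treatment, m6A-IP without it, m7G-IP and input, with 2 or 1 libraries of each kind. The other 4 libraries of this design came from PCIF1-knockout cells and 1 was a CAGE library, and neither is used here. Each list holds 1 set of spans per condition, with a chromosome, a start, an end and a gene name. It holds no strand, signal, read count or replicate, so the depth behind a span is unknown, no replicate error can be given, and a gene that is not listed is not thereby shown to be without m6Am. The heat shock and hypoxia lists name peaks that the authors called different from untreated cells. The fold change they deposited with these peaks was not used, so no direction is given here. Marker genes of the cell line cannot be checked in lists without expression values.

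The stretches of sequence show the letters around the annotated starts of these genes. They do not locate m6Am. The paper reports that the majority of its single-base m6Am sites fell downstream of annotated starts, so the marked base need not carry m6Am. Each line holds 30 bases of the transcribed strand from the GRCh37 genome, written 5′ to 3′, and the capitals mark the start base as their last letter with the pair of bases before it. CCA, GCA and TCA are the contexts of the cap-adjacent BCA motif. The first set is shown because these genes were listed both in HEK293T cells and under hypoxia. For this set the start is the RefSeq gene start placed on GRCh37 by sequence match, and PPP1R12A has a different nearest start for each of its listed spans.
PTPRG: aggatccatgctcACAtgttacttcctgta
MAP2K1: cctcccccggcctCCAgtccctcccagggc
NEK2: gggcccgcgacggTTAaacggggcccaagg
PPP1R12A in HEK293T: cctcgcgataagaAGAcccggcggcaggag
PPP1R12A under hypoxia: cgggtgcgccgccCCAgtgctctgtgggat
These lie at chr3:61547230-61547259 on the plus strand, chr15:66679235-66679264 on the plus strand, chr1:211848949-211848978 on the minus strand, and chr12:80328717-80328746 and chr12:80328863-80328892 on the minus strand. An A stood at the start in all 5 windows, and CCA stood there in MAP2K1 and in the hypoxia window of PPP1R12A. The Gencode start nearest to the same spans, which is the rule of the sets that follow, was G after CC for MAP2K1 and NEK2 in both lists and A for PTPRG and PPP1R12A.

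The second set is shown because the Gencode start nearest to the 5′ end of the listed span was an A after C in the BCA context.
CAMK2N1: ggcgccgcggccgGCAtttctcctcgcagc
PPP3CB: ccgcacgcgcagtGCAtgccggtcttagcc
PRKD2: cgattggtcgactGCActgtcgctccggac
TAOK3: ttggccacccctgGCAggagccgcacctcg
CSNK1D: aggggaagtgacgTCAcagcgcgatggcgg
STK26: gcgcagaggagcgGCAtcactcgagcccag
They lie at chr1:20812689-20812718, chr10:75255768-75255797, chr19:47220370-47220399, chr12:118810698-118810727 and chr17:80231562-80231591 on the minus strand, and at chrX:131157315-131157344 on the plus strand. The Gencode start of PTPRG, 2 bases before its RefSeq start, was also of this kind.

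The third set is shown as a contrast, since the same Gencode rule gave a base other than A for these members.
MAPK3: gggcaagggcgggGCCtggcgcgcgcggcc
TAOK2: gcgctcccgcccgGTCtccatcttggaatt
AKT1 under heat shock: gcgggccggcggcGGCggcaggaccgagcg
DYRK2 under heat shock: tgcgcgggggcgcGCGcgcgcgggcccggg
These lie at chr16:30134616-30134645 on the minus strand, chr16:29985174-29985203 on the plus strand, chr14:105262066-105262095 on the minus strand and chr12:68042510-68042539 on the plus strand. An annotated start is 1 position, while transcription of such GC-rich promoters often begins at several neighbouring bases.

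The HEK293T spans of the members lay over annotated gene starts. A Gencode transcription start of the named gene fell inside 32 of the 34 spans (94.1%, 95% Wilson interval 80.9 to 98.4), beside 1470 of the 1557 spans of the whole list that touched a Gencode gene of their name (94.4%). The 5′ end of the span was within 100 bp of a start for 30 of 34 members (88.2%, 73.4 to 95.3), beside 82.1% of all spans. It fell on the start itself in 9 members, upstream of the nearest start in 20 and downstream in 5. Median distances were 21.5 bp for members and 15 bp for all spans. The intervals cover counting error only.

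**Figure D1:**
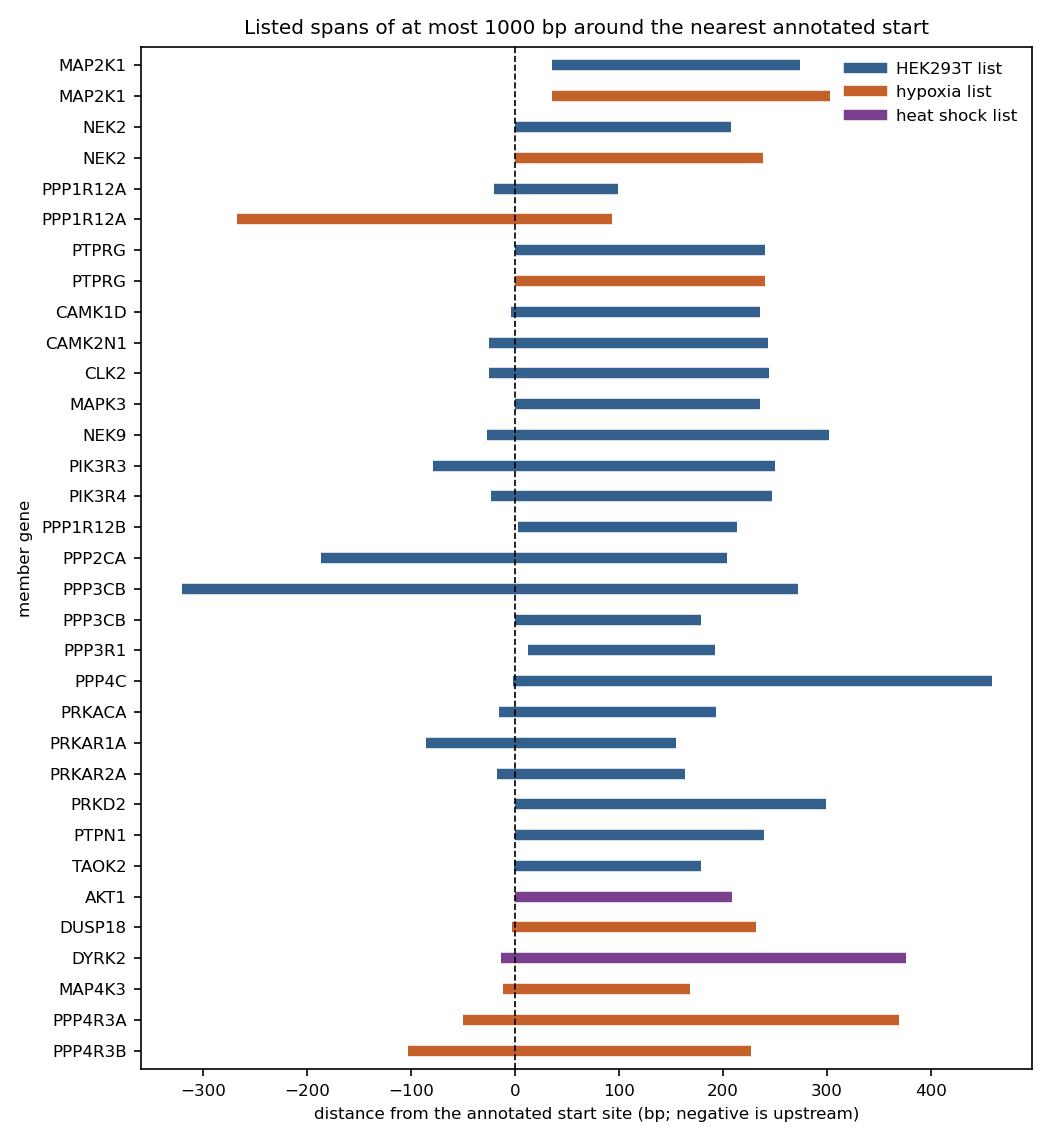
Each bar is a listed member span of at most 1000 bp, drawn by its distance in bp from the Gencode start nearest to its 5′ end (dashed line, with upstream to the left) and coloured by list. For genes with several spans the start is that of the first HEK293T span, and the PTPRG bars of both lists coincide, the MAP2K1 and NEK2 bars share their 5′ ends, and the hypoxia bar of PPP1R12A reaches 247 bp farther upstream than its HEK293T bar; MAP3K13 and MAPK1IP1L, with no start of the gene near the span, are left out.

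The 2 members without a start inside were MAP3K13 and PPP3R1. MAP3K13, a leucine zipper-bearing kinase that acts on JNK signalling, was listed at chr3:185009894-185010042, a stretch of 149 bp inside 1 exon without coding sequence, 6713 bp downstream of its nearest annotated start. PPP3R1, the calcium-binding regulatory subunit of calcineurin, was listed at chr2:68479472-68479651, and its span of 180 bp began 13 bp downstream of the start.

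The member spans were mostly short. Their lengths ran from 120 to 106189 bp with a median of 270.5 bp, while all HEK293T spans ran from 60 to 550637 bp with a median of 1228.5 bp. Spans of at most 1000 bp made up 24 of the 34 (70.6%, 53.8 to 83.2), beside 47.3% of all spans. The longest span within this limit had 593 bp and the shortest beyond it 1104 bp. Of the 24 short spans, 23 touched a single exon of the gene, and 6 of the 10 longer spans exceeded 5000 bp, introns included. Counting exonic bases alone, the medians were 241 bp for members and 354 bp for all spans that touched their named gene. Members and the whole list were thus closer in exonic length than in outer span, and no test of either difference was made.

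**Figure D2:**
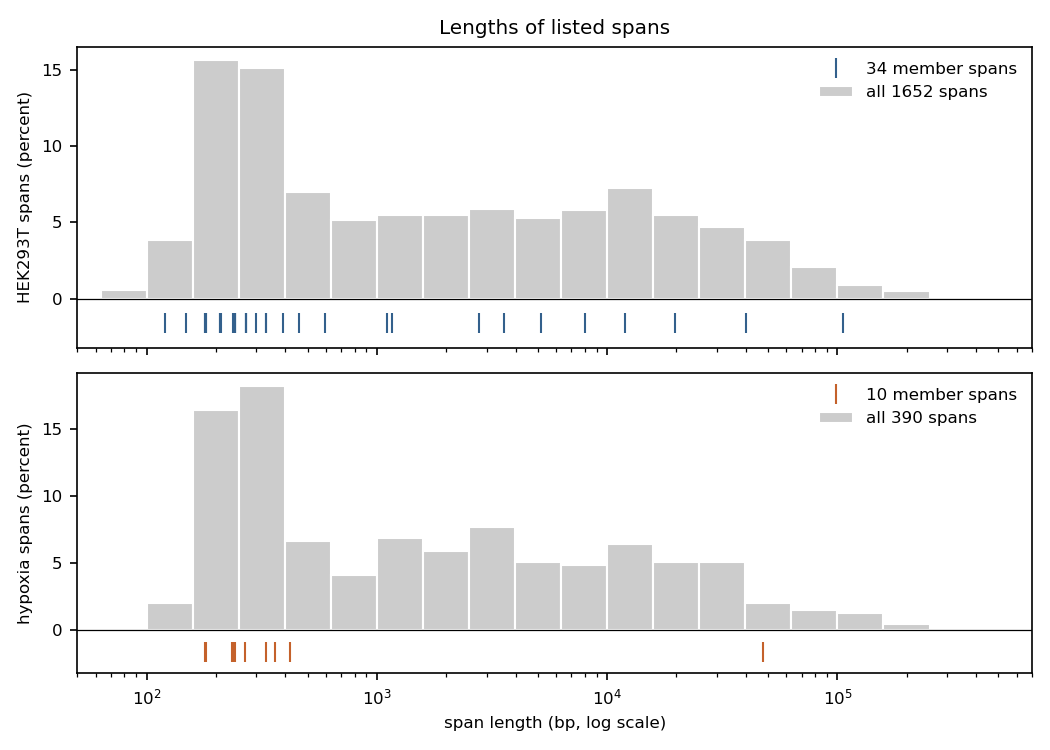
Grey bars give the percent of all spans of the HEK293T list (upper panel) and the hypoxia list (lower panel) in each length bin, on a log axis in bp, and coloured ticks are the member spans. In HEK293T cells 24 of 34 member spans were at most 1000 bp long and in the hypoxia list 9 of 10.

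Counted over the annotation, 32 of the 339 protein-coding genes that match the name rule were in the HEK293T list (9.44%), beside 1439 of all 20149 protein-coding genes (7.14%). The hypoxia list named 10 of the 339 and 1.74% of all genes, and the heat shock list 2 and 0.313%. Over the 3 lists together, 1619 of all protein-coding genes were named (8.04%). Which of the other genes were expressed in these cells was not analysed here. The role groups below are chosen lists of 288 genes in all, and not every gene that matches the rule. They hold all 32 HEK293T member genes (11.1%), so their shares run higher than under the name rule. Their counts are to be read beside the shares of all protein-coding genes given here.

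Among the kinases of the MAPK cascade, 5 of 49 genes were named in the HEK293T list and 2 in the hypoxia list. These kinases pass a signal from a kinase kinase to a kinase to the MAP kinase itself. MAP2K1, which encodes MEK1, the kinase that activates ERK1 and ERK2, was listed at chr15:66679211-66679449 in HEK293T cells. MAPK3, which encodes ERK1, was listed at chr16:30134394-30134630, a span of 237 bp that began on an annotated start with C and held 137 bp of coding sequence. TAOK2 and TAOK3 encode STE20-type kinases upstream of the stress-activated MAP kinases. TAOK2 had 181 bp at chr16:29985188-29985368, and TAOK3 had 106189 bp at chr12:118704562-118810750, of which 1188 bp in 7 exons were exonic and none was coding. Of the 5 HEK293T spans of the group, 4 held no coding sequence. MAP4K3, a STE20-like kinase of the JNK pathway, was listed under hypoxia alone, at chr2:39664274-39664453, where the start of the divergent transcript MAP4K3-DT also lay.

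The dual-specificity phosphatases, which switch off MAP kinases and other substrates, gave 1 of 20 genes in HEK293T cells and another under hypoxia. DUSP10 inactivates p38 and JNK. Its span of 2789 bp (chr1:221912700-221915488) held 387 bp of coding sequence in 2 exons. DUSP18, an atypical member of the family, was listed under hypoxia at chr22:31063642-31063877, with 236 bp and no coding sequence.

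For protein kinase A, 3 of 7 subunit genes were named in the HEK293T list (42.9%, beside 7.14% of all protein-coding genes) and none in either stress list, where 1.74% and 0.313% of all genes were named. This was the highest HEK293T share of the role lists. It rests on only 7 genes, and its difference from all genes was not tested. Cyclic AMP binds the regulatory subunits of this enzyme and so frees the catalytic subunits. PRKACA encodes a catalytic subunit and was listed at chr19:14228351-14228559. PRKAR1A and PRKAR2A encode regulatory subunits of both types and were listed at chr17:66508041-66508281 and chr3:48885103-48885283. The 3 spans had similar lengths of 209, 241 and 181 bp, each in 1 exon, and 2 of them held no coding sequence. The Gencode start nearest to each span was T in PRKACA and G in the other two, whereas the nearest RefSeq start was an A in the BCA context in all 3. These windows are printed as examples of starts that differ between the annotations. Another member, MAPK3, had C by Gencode and G by RefSeq. CAMK1D had A by Gencode, but its only RefSeq start, a G at chr10:12430981, lay outside its span. That base belongs to a distant start and is not a second annotation of the listed one.
PRKACA: ggctgcgggggcgTCAcagacagcggcaga
PRKAR1A: ggagggagaaaagGCAgaggcgtcaaggga
PRKAR2A: gcggtggcgtgcgTCAcaaccaggacgcct
These RefSeq windows lie at chr19:14228560-14228589 on the minus strand, chr17:66508126-66508155 on the plus strand and chr3:48885293-48885322 on the minus strand. The PRKACA and PRKAR2A starts were 15 and 24 bp upstream of the spans, and the PRKAR1A start lay inside its span.

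None of the 7 AMP-activated kinase subunit genes was named in any list, where 8.04% of all protein-coding genes were named. A list of 7 genes is too small to tell this count from that share. Of the 13 protein kinase C and D genes 1 was named, PRKD2, a diacylglycerol-responsive kinase, whose span of 300 bp (chr19:47220085-47220384) began on its annotated start and held no coding sequence.

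Calcium signalling was represented by 4 of 19 genes, all in the HEK293T list. CAMK1D encodes a calmodulin-dependent kinase, and its 241 bp span at chr10:12391542-12391782 began 4 bp upstream of an A start. CAMK2N1 encodes an inhibitor of calmodulin-dependent kinase II and was listed at chr1:20812460-20812728. PPP3CB encodes a catalytic subunit of calcineurin, the calcium-activated phosphatase that acts on NFAT, and was listed on 2 lines. The shorter span (chr10:75255603-75255782, 180 bp) lay wholly inside the longer one (chr10:75255510-75256102, 593 bp). The shorter began on the A start itself, and the longer reached 320 bp farther upstream, over the start of the opposite-strand gene PPP3CB-AS1. With PPP3R1, calcineurin had both a catalytic and a regulatory gene in the list.

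Protein phosphatase 1 gave 2 of 30 genes, both myosin phosphatase targeting subunits. PPP1R12A (MYPT1) had the shortest member span, 120 bp at chr12:80328612-80328731, of which 100 bp were coding. PPP1R12B had 211 bp at chr1:202317830-202318040, beginning 3 bp downstream of its annotated start.

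The protein phosphatases 2A, 4, 5 and 6 gave 7 of 27 genes over the 3 lists. In HEK293T cells these were PPP2CA, a catalytic subunit of protein phosphatase 2A, PPP2R1B, a scaffold subunit, PPP2R5C, a substrate-choosing subunit of the B56 family, and PPP4C, the catalytic subunit of protein phosphatase 4. Their spans had 391, 1104, 1165 and 461 bp, at chr5:133561560-133561950, chr11:111636066-111637169, chr14:102228135-102229299 and chr16:30087297-30087757. The hypoxia list held 3 genes of this group, all for regulatory subunits, as are most genes of the group. PPP4R3A and PPP4R3B are regulatory partners of PPP4C and were listed at chr14:91976285-91976704 and chr2:55844530-55844860, both without coding sequence. PPP2R2A, a B55 subunit of protein phosphatase 2A, had a span of 47407 bp at chr8:26149007-26196413 that touched 11 exons. Each of the 7 genes appeared in 1 list alone. Over the whole lists, 1429 of all 1652 HEK293T spans met no hypoxia span, and 170 of all 390 hypoxia spans met no HEK293T span.

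The protein tyrosine phosphatases gave 2 of 27 genes. PTPN1 encodes PTP1B, which acts on the insulin receptor, and its 240 bp span at chr20:49126858-49127097 began on its annotated start with C. PTPRG encodes a receptor-type phosphatase and was listed at chr3:61547243-61547483 with 241 bp.

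In the group of PI3K, AKT and S6 kinases, 4 of 34 genes were named in HEK293T cells and 1 under heat shock. PI3-kinases make the membrane lipid that recruits AKT, which in turn acts on TOR and the S6 kinases. PIK3R3, a regulatory subunit of class I PI3-kinase, was listed at chr1:46598051-46598380 and PIK3R4, the partner of the class III enzyme, at chr3:130465426-130465696. RPS6KB1, which encodes S6 kinase 1, had 19639 bp at chr17:57970407-57990045 from its annotated start. AKT1S1 encodes PRAS40, an AKT substrate that holds back TOR complex 1, and had 2 nested spans of 5142 and 3570 bp (chr19:50376472-50381613 and chr19:50376478-50380047). The outer one also covered a start of TBC1D17, and its m6Am cannot be assigned to AKT1S1 from the position alone. AKT1 itself was listed only under heat shock, at chr14:105261871-105262080, with 210 bp, no coding sequence and 85.7% GC.

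Casein kinase CSNK1D, which phosphorylates the PER clock proteins, was the single gene named of 10 and had 7990 bp at chr17:80223637-80231626. The STK and WNK kinases gave 2 of 25. STK4 encodes the Hippo kinase MST1 and STK26 the related kinase MST4, and both had long spans, 11998 bp at chr20:43595111-43607108 and 40232 bp at chrX:131157245-131197476. The DYRK, CLK and NEK kinases gave 3 of 20 in HEK293T cells. CLK2, which phosphorylates SR splicing factors, was listed at chr1:155243051-155243320, NEK2, which acts in centrosome separation, at chr1:211848764-211848972, and NEK9, a mitotic kinase that activates other NEK kinases, at chr14:75593454-75593783. DYRK2 was listed under heat shock alone, with 390 bp at chr12:68042512-68042901.

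**Figure D3:**
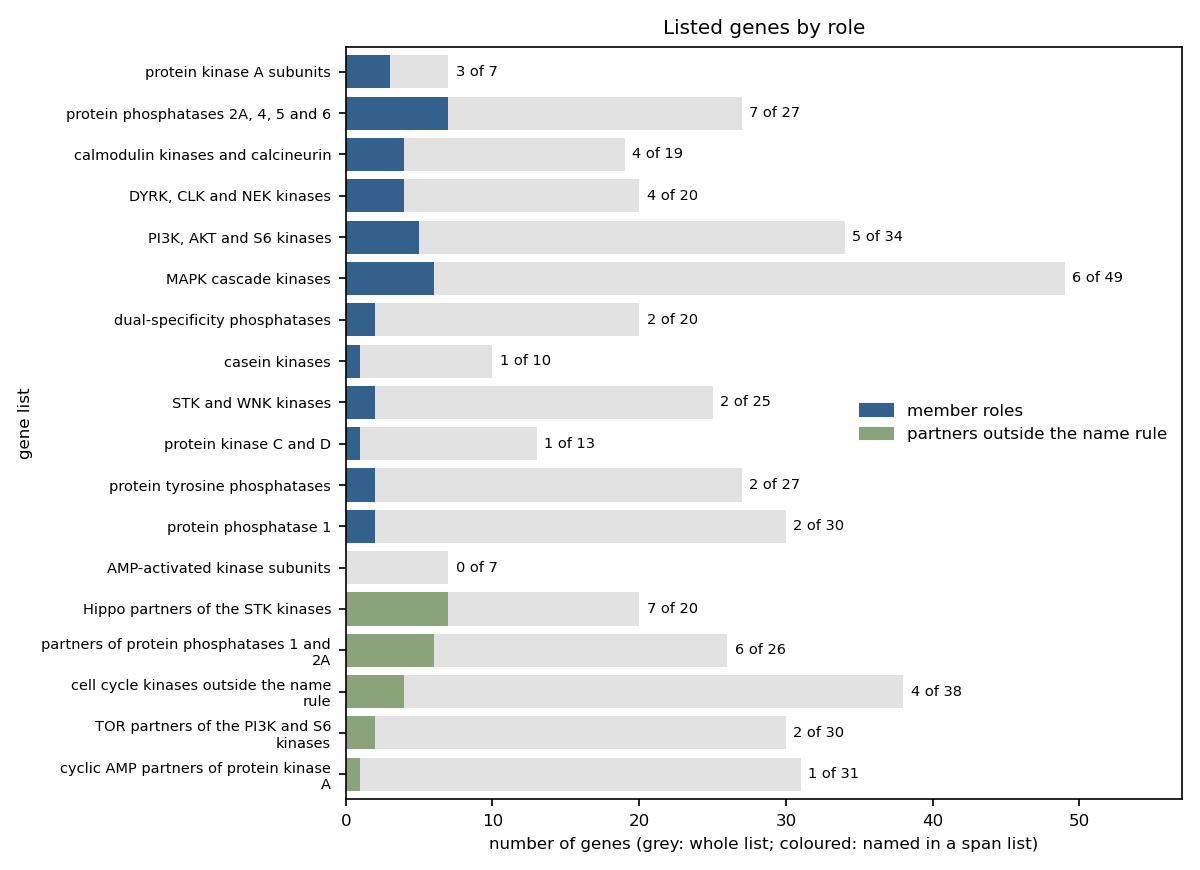
Grey bars give the number of genes in each role list and coloured bars those named in at least 1 of the 3 span lists. Blue marks the member roles and green the partner or related genes outside the name rule, without the RAS and RAF partners. Protein phosphatases 2A, 4, 5 and 6 had 7 of 27 genes named, protein kinase A 3 of 7, protein phosphatase 1 2 of 30 and AMP-activated kinase 0 of 7, beside 8.04% of all protein-coding genes. The bar of Hippo partners also holds genes outside that pathway, such as KRIT1.

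Partners of the members and related kinases that carry other names were listed as follows. These gene lists were chosen with earlier results of these data known, so their counts cannot show a difference from all genes. Beside these counts, the HEK293T list named 7.14% of all protein-coding genes, the hypoxia list 1.74% and the heat shock list 0.313%. Of 20 listed partners of the STK kinases, 7 were in the HEK293T list (SAV1, MOB1B, YAP1, TEAD1, TEAD3, AMOT and KRIT1). Of these 7, 4 were also in the hypoxia list (SAV1, YAP1, TEAD1 and KRIT1). Most genes of this list belong to the Hippo pathway, but KRIT1 does not. Of 30 RAS and RAF partners of the MAPK cascade, 6 were in the HEK293T list (SHC1, NF1, YWHAB, YWHAZ, ELK1 and FOS). Of 26 partners of protein phosphatases 1 and 2A, 5 were in the HEK293T list, among them ARPP19 and ENSA, small inhibitors of protein phosphatase 2A in mitosis, with ARPP19 also under hypoxia. MOB4, a partner in the same list, was in the heat shock list. Of 38 cell cycle kinases outside the name rule 4 were named (CDK16, PLK4, BUB1 and CHEK1), of 30 TOR partners 2 (DEPTOR and GSK3B, the latter also under heat shock) and of 31 cyclic AMP partners 1 (GNAI2).

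Hypoxia and HEK293T spans coincided in 4 members. The question was which members with an m6Am peak in HEK293T cells also had a peak called different from untreated cells under stress. The stress lists name changes only, so a span absent from them may still carry m6Am under that stress. Of the 34 HEK293T member spans, 4 shared at least 1 bp with a hypoxia span (11.8%, 4.67 to 26.6), beside 223 of all 1652 (13.5%). Read from the other side, 4 of the 10 hypoxia member spans shared sequence with a HEK293T span (40%, 16.8 to 68.7), beside 56.4% of all 390. The value of the whole list lay inside the counting interval of the members in both directions.

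The 4 genes differed in how closely their spans matched. PTPRG had the same start and end in both lists, over 241 bp. NEK2 had the same 5′ end, and its hypoxia span was 239 bp long and ran 30 bp farther at the 3′ side than the 209 bp of the HEK293T span. MAP2K1 likewise began at the same base, and the hypoxia span of 268 bp ended 29 bp farther on than the HEK293T span of 239 bp. In PPP1R12A the spans shared 114 bp, which were 95% of the HEK293T span and 31.6% of the hypoxia span. The hypoxia span of 361 bp began 247 bp farther upstream and took in other annotated starts of the gene, together with that of PPP1R12A-AS1 on the opposite strand, which the HEK293T span also held.

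The 6 hypoxia members without a HEK293T span were DUSP18, MAP4K3, PPP4R3A, PPP4R3B, PPP2R2A and MAPK1IP1L, and none of these genes was named anywhere in the HEK293T list. The hypoxia member spans had a median of 254.5 bp against 1287 bp for the whole list, and 9 of 10 were at most 1000 bp long (90%, 59.6 to 98.2), beside 47.4%. The line named MAPK1IP1L went against its gene name. Its span, chr14:55509764-55509944, lay outside the annotated MAPK1IP1L gene, 8421 bp before its nearest start, and all 181 bp fell in coding sequence of SOCS4, a gene of the cytokine signalling suppressor family on the same strand. The count of hypoxia members that lie in their named gene was therefore 9.

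No HEK293T member span shared sequence with a heat shock span. The count was 0 of 34 (95% Wilson interval 0 to 10.2%), where 3 spans would be a share of 8.82%, and 42 of all 1652 HEK293T spans did so (2.54%). Of the 2 heat shock members, AKT1 and DYRK2, neither met a HEK293T span, while 60.8% of all 74 heat shock spans did. With 2 spans the 95% Wilson interval runs from 0 to 65.8%. No member was named in both stress lists, and with 2 heat shock members this count cannot show a difference from other genes. The share over all genes is not given here.

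The first base of the annotated transcript depended on the annotation. By the Gencode start nearest to the 5′ end of the span, A stood at the start of 12 of 34 member spans (35.3%, 21.5 to 52.1), beside 45.3% of all spans. G stood there in 16, C in 4 and T in 2. The BCA context was met by 8 spans (23.5%, 12.4 to 40), beside 28% of all. Both nested spans of PPP3CB have the same nearest start, an A in this context, and each is counted in the 12 and in the 8. With any start inside the span allowed, 25 of 34 held one with A (73.5%, 56.9 to 85.4), beside 76.8%. RefSeq gene starts, which could be placed for 28 of the 34, gave A in 16 (57.1%, 39.1 to 73.5), beside 55.5% of the 1275 spans placed in all and 44.4% of all RefSeq promoters. The 28 include RefSeq starts far from the 5′ end of the span. These were G at chr10:12430981 for CAMK1D, A at chr12:118797510 for TAOK3 and G at chr3:185000749 for MAP3K13. Both annotations gave the same position in 9 of the 28 members placed, and an A in both in 7. In each of these counts the value of all spans lay inside the counting interval of the members.

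**Figure D4:**
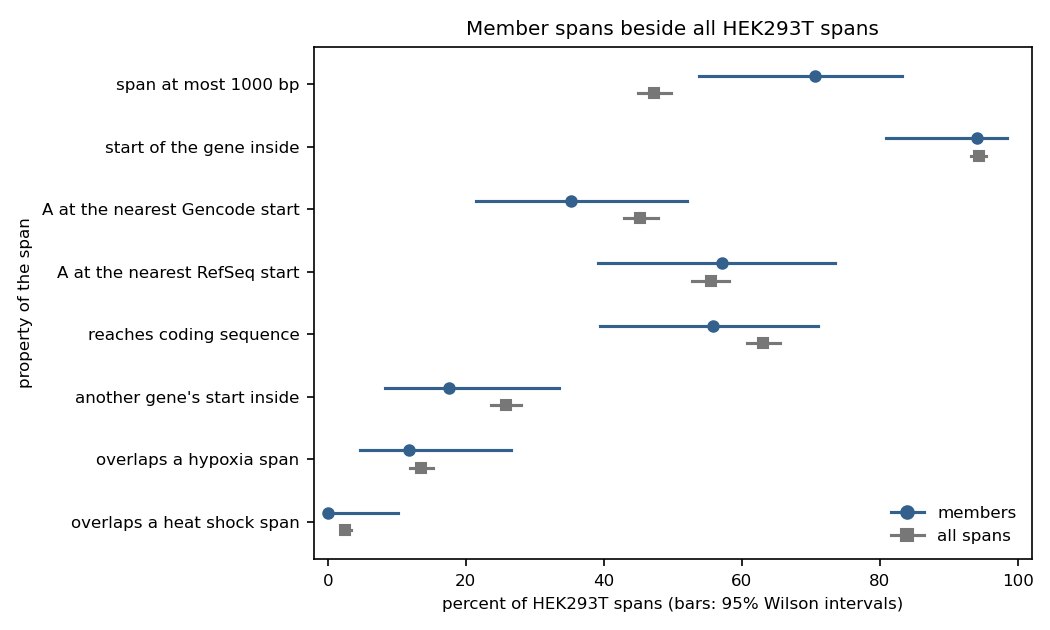
Points give the percent of HEK293T spans with each property, for the members (circles) and for all spans (squares), and bars are 95% Wilson intervals, which cover counting error only. The share of short spans was 70.6% for members against 47.3%, and for the other 7 properties the value of the whole list lay inside the interval of the members.

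Coding sequence was reached by 19 of 34 member spans (55.9%, 39.5 to 71.1), beside 63.1% of all, and 15 held none. The start of another gene lay in 6 member spans (17.6%, 8.35 to 33.5), beside 25.8% of all. These were the spans of PPP3CB, PPP1R12A, RPS6KB1, CSNK1D, AKT1S1 and STK4, which held starts of PPP3CB-AS1, PPP1R12A-AS1, the pseudogene RPS29P21, ENSG00000287737, TBC1D17 and STK4-DT. Since the lists give no strand, reads of such genes cannot be told apart there by position.

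The internal m6A motif GGACH, which is GGAC followed by any base but G, was searched in the sense direction of the gene within exons. Its median density was 4.2 per kb for the 34 members and 3.22 per kb for all 1551 spans with exonic bases, and 11 members held none. The highest member value was 8.33 per kb, from the single match in the 120 bp of PPP1R12A. STK26 had no match in 571 exonic bases and AKT1S1 had 20 in the 4060 of its longer span. The exonic GC content had a median of 65.6% in members and 60.1% in all spans, and among HEK293T members it ran from 39.4% in STK4 to 83.7% in PRKACA.

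On chromosome 16, 3 members were neighbours. TAOK2, PPP4C and MAPK3 were listed within 149443 bp (chr16:29985188-30134630), with INO80E, a subunit of a chromatin remodelling complex, as the only other HEK293T span in this stretch. INO80E was also in the hypoxia list, and none of the 3 members was. This neighbourhood was named after the positions were seen, and no window of that length held more than 3 member genes of the HEK293T list.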

How the data were processed

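The authors trimmed reads (Trim Galore 0.6.6 in the submitters' processing notes, which also name Cufflinks), aligned them to hg19 with HISAT2, called peaks with exomePeak and MACS2 where m7G-IP peaks overlapped, and called m6Am where signal fell after FTO treatment. How replicates were combined is not given in the sources used here. The authors deposited positions and gene names, and in both stress lists a fold change column, which was not used.

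Positions were numbered from 1: 174 of 1652 HEK293T starts fell on an exon's first base, 11 and 3 when shifted by 1 base. Genes, strands and starts came from Gencode release 44 on GRCh37. A Gencode gene of the given name (or a RefSeq synonym) touched 1557 of 1652 HEK293T, 67 of 74 heat shock and 371 of 390 hypoxia spans, and 5 HEK293T spans had no name. RefSeq starts (GRCh38) were placed on GRCh37 by exact match of the surrounding bases. Spans that shared at least 1 bp were counted as overlapping, and 95% Wilson intervals were computed for shares. These intervals take each listed span as a unit, nested spans of the same gene included. No test was made, because the lists hold 1 set of spans per condition. The overlap rules were tested on simulated data, where all 100 overlaps placed among 1000 spans were found.

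Members and gene lists were chosen with earlier results of these data known. Some results on genes outside the name rule are not reported here. Every member gene is named, and members in a stress list, with 2 lines or with overlapping spans are given in detail, with the shortest and longest span of each role. The sequences shown were picked from these windows after they were seen. Alternatives changed the overlap rule, the spans, the transcripts or the motif search. RefSeq starts were added as an alternative after the data were seen. Scripts ran in Python 3.11.15 with SciPy 1.17.1 for intervals, samtools 1.23.1 and pyfaidx 0.9.0.4 for the genome and Matplotlib 3.10.9 for figures.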

Additional observations from a re-analysis of the deposited data

How the results depend on the processing

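Of 17 alternatives to 7 results, 12 left the share within its counting interval or the count or median within 1.5 times, and 5 did not. With catalytic members only, the HEK293T list held 22 member spans in place of 34. With identical start and end required, the overlap with hypoxia fell from 11.8% to 2.94%, which was PTPRG alone, while 50% of both spans gave 8.82%. With RefSeq gene starts, a start lay inside 78.6% of the 28 spans placed in place of 94.1%, and the start base was A in 57.1% in place of 35.3%. With an A in BCA context allowed within 50 bases of the start, all 34 members qualified (100%), as did 1547 of 1557 spans of the whole list. The cause of the other changes was not tested. No paired analysis was possible because each list holds 1 set of spans per condition and no replicate, and for the same reason no replicate could be left out. The lists hold no signal, so depth limits could not be given, and the outer spans include introns and neighbouring starts.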

Other observations

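Promoter windows of RefSeq (GRCh38.p14, 250 bases before to 50 after each gene start) were searched for a pair of short motifs on both strands. They matched 34 of the 40 member genes with 58 windows, and windows of 1 gene can overlap. The ETS motif CCGGAAG was in 3 of these 58 windows (5.17%), of PPP2R5C, PPP4C and STK4, in 16.5% of the windows of all listed genes and in 10.3% of all 35116 windows. The TATA box TATAAA was in 3 member windows (5.17%), of PIK3R3, PPP1R12B and PRKAR1A, in 6.74% of those of listed genes and in 11.5% of all. A match here is a description of letters, and nothing about the factors was measured.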
